A study of Mus musculus with 28 samples.

Results

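The passage from hemogenic endothelium to blood at E10.5 (E, day of embryonic development) was followed in RNA sequencing counts of 2 sorted cell populations of the mouse embryo, across all genes. The populations were labelled pre-HSC II and hemogenic endothelium (HE), with 3 libraries each, which makes 6 of the 28 libraries of the study. They were taken by their labels, without use of any measured value. Each library came from 100 cells sorted into lysis buffer. The cells of all groups came from embryos of the genotype labelled 23GFP transgenic, and the tissue of E10.5 groups is labelled AGM+VU, a term the labels leave unexpanded, as they do for the transgene's promoter. Where levels are set beside those of other groups, these are pre-HSC I and endothelial cells (EC) of E10.5 in the same tissue, and HE and the population labelled pro-HSC/HPC (HPC, hematopoietic progenitor cell) of E9.5 in the tissue labelled PAS+VU, with 3 libraries each. How the sort was gated is not given in the sources used here. The study's description calls the replicates biological, and nothing says whether they came from separate embryos or litters. The p-values here therefore speak only to the spread among the libraries, which may be technical.

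Blood stem cells of the embryo arise from the wall of the dorsal aorta. Flat endothelial cells that express Runx1 loosen their junctions, round up and leave the wall, a step known as the endothelial-to-hematopoietic transition, and their progeny pass through precursor stages named pre-HSC I and pre-HSC II before they can repopulate an adult. Pre-HSC II are known for the leukocyte surface protein CD45, which pre-HSC I lack, while both keep the endothelial cadherin on their surface.

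The 6 libraries held 17183716 to 28143388 counts, and between 14490 and 15415 genes had at least 1 count in each. Replicates correlated at 0.953 to 0.965 in HE and 0.967 to 0.975 in pre-HSC II (log2 scale, across genes, which are not independent replicates). Values are CPM, a gene's counts relative to the library's total after scaling, 3 counts stand for 0.108 to 0.147 CPM, and means are given ± SD with n = 3. The E10.5 libraries numbered 1 had scaling factors of 0.924 to 0.987, against 1.08 to 1.25 in the other E10.5 libraries, for a cause not tested. In markers of other cell types a single HE library stood apart. HE replicate 1 held transcripts of mesenchyme and smooth muscle: the collagen Col1a1 was at 116, 0.147 and 0.0439 CPM and the smooth muscle actin Actg2 at 173, 6.73 and 6.14 CPM in HE replicates 1, 2 and 3. The mean level of 14 mesenchyme and smooth muscle markers, in log2(CPM + 1), ran from 1.82 to 4.13 over the HE libraries, with replicate 1 at the top, and from 1.06 to 1.24 in pre-HSC II. Named markers of these cell types, and the lists of matrix and actomyosin genes, are given against HE with and without that library.

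Pre-HSC II differed from HE in 3267 of the 15238 genes tested, or 21.4% (edgeR quasi-likelihood test, Benjamini-Hochberg adjusted p under 0.05, the rule for every gene said to be called, to rise or to fall). Of these 1333 were higher in pre-HSC II, 8.75% of the genes tested, and 1934 were lower, 12.7%. The falls were larger: the median log2 difference (pre-HSC II minus HE) was 1.41 among the genes that rose and -2.45 among those that fell, against 0.018 over all genes. At least 4-fold differences were found in 453 of the risen and 1162 of the fallen genes, and at least 16-fold differences in 266 and 563. In 2830 genes (18.6% of those tested) all 3 pre-HSC II libraries lay above all 3 HE libraries, and in 2926 (19.2%) all lay below. RNA of 100 cells cannot tell fewer expressing cells from less RNA per cell, and this holds for each difference below.

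**Figure D1:**
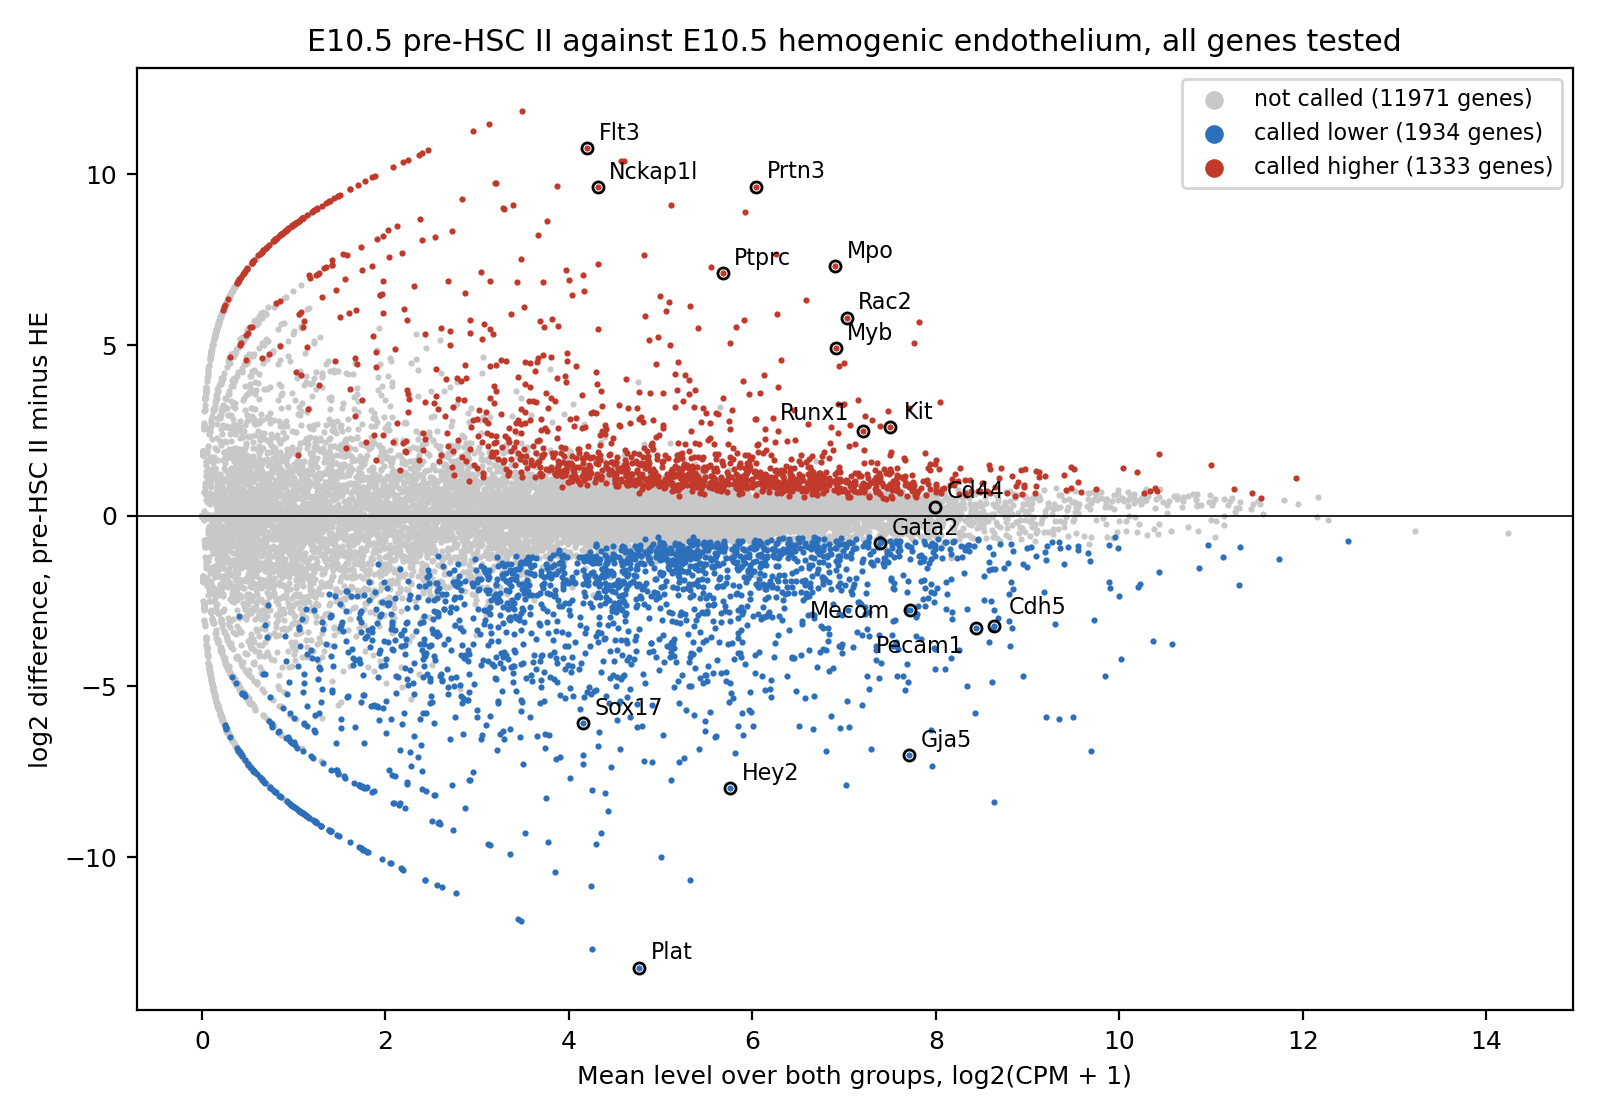
Each point is 1 of 15238 genes, placed by its mean level over both groups in log2(CPM + 1) and by its log2 difference, pre-HSC II minus HE. Red genes (1333) were called higher and blue genes (1934) called lower, and the blue cloud reaches further from 0, with Plat lowest among the labelled genes. Curved rims are genes at or near 0 counts in one group.

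The labels were set beside the RNA of 8 genes that encode surface proteins. Of these 4 rose, 3 fell, with Procr given further below, and 1, Ly6a, was not called. Ptprc, which encodes CD45, was at 1.58, 0.491 and 0.0439 CPM in the HE libraries and 64.3, 133 and 103 CPM in the pre-HSC II libraries (log2 difference 7.10 ± 0.89 SE, edgeR adjusted p = 1.42e-06). It also exceeded the pre-HSC I libraries, which were at 5.66, 13.3 and 15.2 CPM. Spn, which encodes CD43, rose from 4.35 ± 0.844 to 52.7 ± 7.03 CPM (log2 difference 3.60 ± 1.07 SE, edgeR adjusted p = 0.0169), and Itga2b, which encodes CD41, from 3.87 ± 0.769 to 28 ± 12.7 CPM (log2 difference 2.85 ± 0.45 SE, edgeR adjusted p = 3.01e-05). The stem cell factor receptor Kit was at 55.3, 35.6 and 61.8 CPM in the HE libraries and 231, 309 and 387 CPM in the pre-HSC II libraries, with no overlap (log2 difference 2.60 ± 0.37 SE, edgeR adjusted p = 6.58e-06). Cdh5, the endothelial cadherin, fell but was not lost: it was at 739, 721 and 696 CPM in the HE libraries and 86.6, 60.8 and 84.2 CPM in the pre-HSC II libraries (log2 difference -3.22 ± 0.31 SE, edgeR adjusted p = 1.1e-08). The endothelial adhesion molecule Pecam1 fell from 626 ± 137 to 64.1 ± 25.4 CPM. Of the markers named in these sentences only Spn lost its call when 1 library was left out, with edgeR adjusted p = 0.0505, 0.0535 and 0.0692 without HE replicate 1, 2 or 3.

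**Figure D2:**
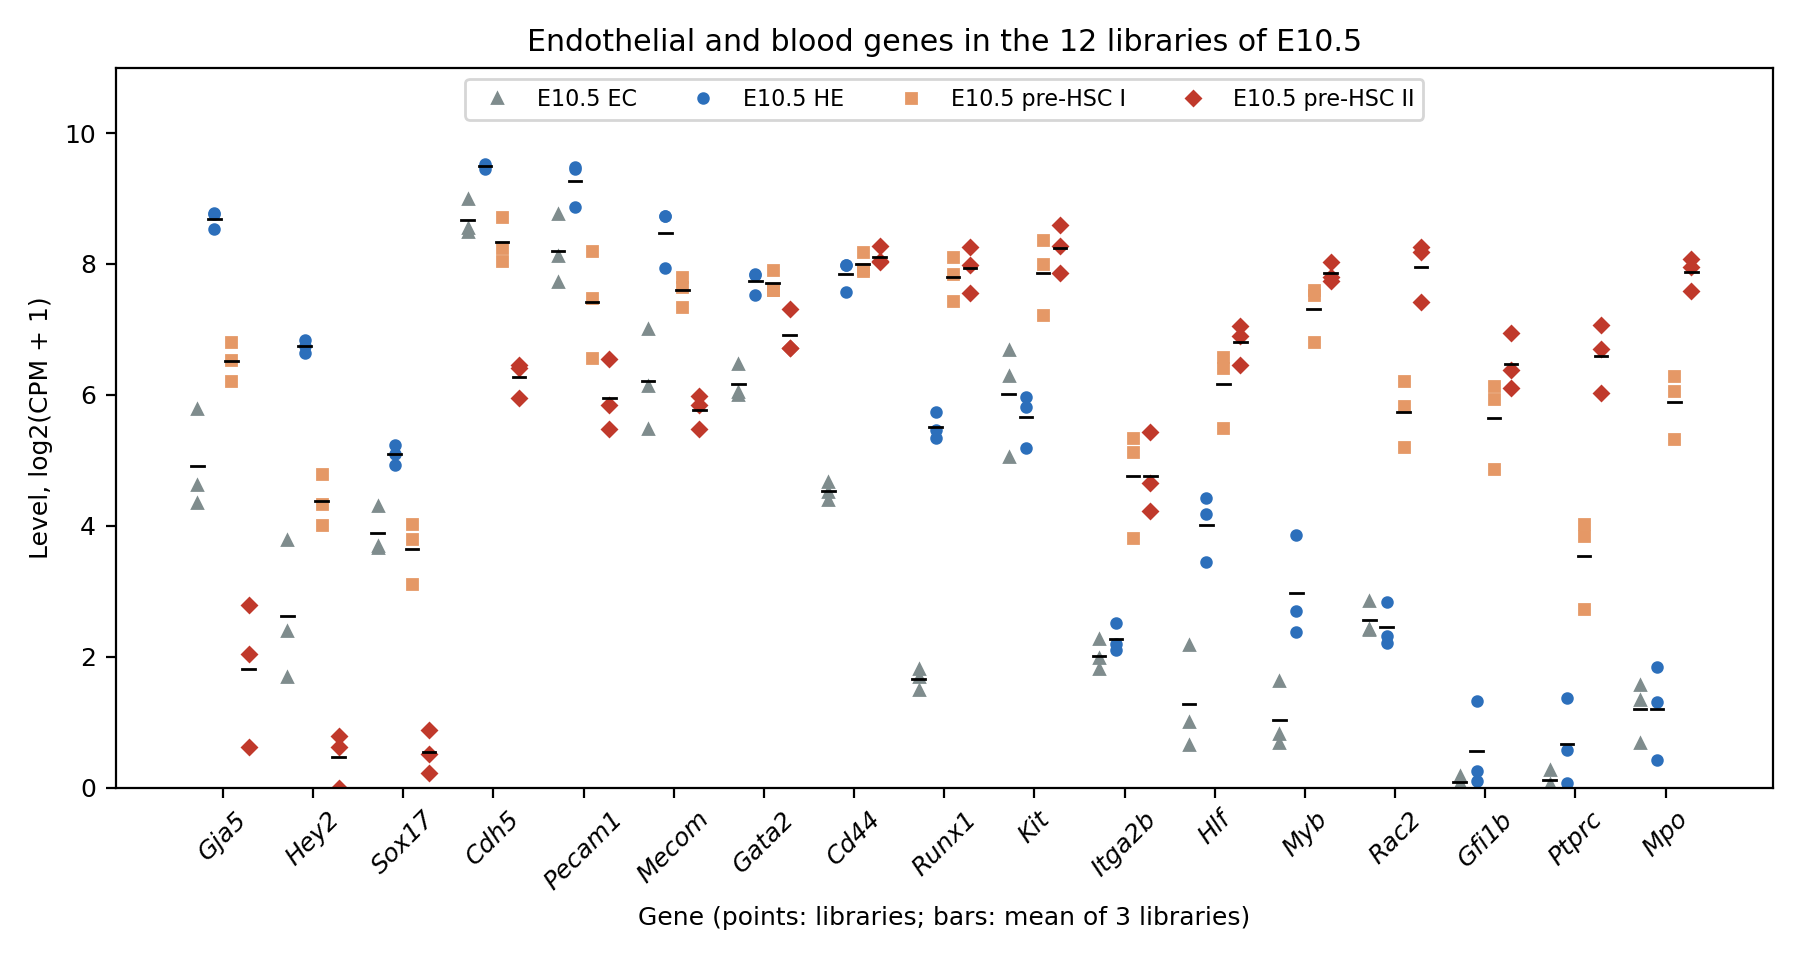
Levels of 17 genes, in log2(CPM + 1), in the 12 libraries of E10.5, with points for libraries and bars for the mean of 3. From Gja5 to Mecom the pre-HSC II libraries (red diamonds) lie below the HE libraries (blue circles). From Runx1 to Mpo they lie above, and the pre-HSC I libraries (orange squares) mostly lie between.

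The 15 largest rises among genes with at least 10 CPM were genes absent or nearly absent from HE. Bex6 (chromosome 16, 32179886 to 32187030, mm9), F13a1, which encodes the A chain of coagulation factor XIII, and Tnip3, an inhibitor of NF-kappaB signalling, had 0 counts in all 3 HE libraries. Bex6 was at 20.6, 25.1 and 15.6 CPM in pre-HSC II, at least 488-fold higher taking the 3 HE libraries together at 3 counts as the floor (log2 difference 11.87, edgeR adjusted p = 0.000261). F13a1 was at least 371-fold and Tnip3 at least 329-fold higher. Flt3, the cytokine receptor of early lymphoid and myeloid progenitors (chromosome 5, 148142317 to 148212065), had 1 count over the HE libraries and 23.8, 45.3 and 35.3 CPM in pre-HSC II (depth-scaled ratio 2451, 95% counting interval 440 to 96852). Prtn3, the granule protease proteinase 3 (chromosome 10, 79342412 to 79345917), was at 0.108, 0.197 and 0.176 CPM in the HE libraries and 159, 129 and 99.9 CPM in the pre-HSC II libraries (log2 difference 9.64 ± 0.70 SE, edgeR adjusted p = 2.31e-10). Nckap1l, the blood cell subunit of the WAVE actin regulator, had 3 counts in HE and 37.9 ± 8.31 CPM in pre-HSC II (depth-scaled ratio 887, 95% counting interval 303 to 4304). Cd52, a small surface protein of leukocytes, averaged 16.3 ± 6.42 CPM in pre-HSC II and had 1 count in HE. The others were the tubulin Tuba8 (log2 difference 10.40), the lymphoid signalling protein Tespa1 (10.40), the glutathione transferase Mgst2 (9.75), Wdfy4, which acts in antigen presentation (9.66), the G protein regulator Rgs1 (9.28), the actin-binding Coro2a (9.11), Ubash3a, a suppressor of T cell receptor signalling (9.10), and the transporter Slc35d3 (9.02). In none of the 15 did the groups overlap, since the rule for naming them asked for that, and Rgs1 was uneven in pre-HSC II, from 2.11 to 22.9 CPM.

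The 15 largest falls were mostly secreted and endothelial genes. Plat, the tissue plasminogen activator that endothelium releases (chromosome 8, 23868216 to 23893320), was at 50.6, 47.4 and 59.5 CPM in HE and at 0 counts in all 3 pre-HSC II libraries, at least 1255-fold lower (log2 difference -13.24, edgeR adjusted p = 1.96e-10). The chemokine Cxcl12, which holds blood stem cells in their niche (chromosome 6, 117118553 to 117131386), was at 37.8, 39.3 and 31.1 CPM in HE and also at 0 counts in pre-HSC II, at least 862-fold lower. Tmem255b, the disulfide isomerase relative Agr2, the endothelial proteoglycan Esm1 and the catenin Ctnnd2 were at 0 counts in pre-HSC II as well, and were at least 474-fold, 473-fold, 247-fold and 249-fold lower. The serine protease Prss23 averaged 78 ± 30.2 CPM in HE and had 3 counts over the pre-HSC II libraries. The peptide neurotensin, encoded by Nts, averaged 26.9 ± 11.6 CPM in HE and had 1 count in pre-HSC II. Palmd, the matrix protein Spon2, the sulfatase Sulf1, the tubulin-binding Eml1 and the oncostatin M receptor Osmr each had 1 or 2 counts in pre-HSC II. In 2 genes of the 15 HE replicate 1 was far above the others. Actg2 was at 173, 6.73 and 6.14 CPM in the HE libraries and 0.0765, 0.0407 and 0.0479 CPM in the pre-HSC II libraries (log2 difference -9.99, edgeR adjusted p = 0.00223), and the collagen Col3a1 was at 94, 7.52 and 9.83 CPM in the HE libraries and 0, 0.0813 and 0.0479 CPM in the pre-HSC II libraries (log2 difference -9.61, edgeR adjusted p = 0.000346). Without HE replicate 1 their log2 differences were -6.72 (adjusted p = 0.0223) and -7.52 (adjusted p = 0.00227).

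Windows of 250 bases before to 50 bases after a gene's start, from the RefSeq table of build GRCm38.p6 (the counts use mm9), were found for 11308 of the genes tested. They were searched on both strands for 3 short motifs: TGTGGT, bound by RUNX factors, TGGGAA, bound by the Notch effector RBPJ, and AGATAA, bound by GATA factors. The RUNX letters stood in 16.2% of 1027 genes that rose, 13% of 1412 genes that fell, 15.2% of the genes tested and 16.8% of all 32851 windows. The RBPJ letters stood in 25.6%, 28.2%, 27% and 25.6%, and the GATA letters in 8.37%, 7.58%, 8.30% and 11.2%, in the same order, so that risen and fallen genes lay near the share of all genes tested. Of the 15 largest rises 11 had a window, and 5 of these held the RUNX, 5 the RBPJ and 1 the GATA letters. Of the 15 largest falls 10 had a window, and 2, 4 and 3 of these held them. A match is a string of letters and not a bound site. The 250 bases before the start are shown, 5′ to 3′ on the gene's strand with the match in capitals, for Bex6 (chr16:32179550-32179799, plus strand), Wdfy4 (chr14:33185067-33185316, minus strand) and Mgst2 (chr3:51660929-51661178, plus strand), 3 genes close to absent from HE that hold the RUNX letters, and for Hey2 (chr10:30842784-30843033, minus strand) and Cxcl12 (chr6:117168285-117168534, plus strand), 2 arterial genes close to absent from pre-HSC II that hold the RBPJ letters.
Bex6: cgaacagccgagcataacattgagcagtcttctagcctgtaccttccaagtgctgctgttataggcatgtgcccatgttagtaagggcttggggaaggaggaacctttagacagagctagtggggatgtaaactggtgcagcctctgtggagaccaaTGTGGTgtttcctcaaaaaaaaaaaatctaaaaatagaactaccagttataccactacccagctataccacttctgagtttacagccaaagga
Wdfy4: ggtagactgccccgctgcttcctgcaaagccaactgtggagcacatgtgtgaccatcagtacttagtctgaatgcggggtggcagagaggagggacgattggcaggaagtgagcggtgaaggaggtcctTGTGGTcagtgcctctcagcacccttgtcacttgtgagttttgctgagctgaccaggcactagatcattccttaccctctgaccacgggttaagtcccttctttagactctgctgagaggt
Mgst2: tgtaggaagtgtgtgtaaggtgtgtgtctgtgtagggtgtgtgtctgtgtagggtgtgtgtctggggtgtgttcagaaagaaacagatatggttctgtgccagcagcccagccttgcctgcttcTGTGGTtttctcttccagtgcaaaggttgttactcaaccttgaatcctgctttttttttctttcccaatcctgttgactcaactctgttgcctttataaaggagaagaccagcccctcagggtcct
Hey2: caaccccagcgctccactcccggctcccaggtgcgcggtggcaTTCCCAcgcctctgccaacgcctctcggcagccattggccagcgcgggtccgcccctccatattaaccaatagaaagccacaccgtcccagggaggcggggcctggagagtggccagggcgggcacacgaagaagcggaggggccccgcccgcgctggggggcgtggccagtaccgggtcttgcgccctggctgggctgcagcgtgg
Cxcl12: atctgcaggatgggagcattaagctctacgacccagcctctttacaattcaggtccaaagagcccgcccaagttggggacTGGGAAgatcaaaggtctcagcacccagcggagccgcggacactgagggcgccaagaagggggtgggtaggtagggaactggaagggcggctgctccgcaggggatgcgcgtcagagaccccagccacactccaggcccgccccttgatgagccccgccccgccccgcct
The matches begin 93, 121, 126, 207 and 170 bases before the start, and that of Hey2 reads on the opposite strand.

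Transcription factors that specify blood rose in part. Of 50 hematopoietic transcription factors tested 20 rose and 5 fell (median log2 difference 0.79, against 0.018 over all genes). Without the E10.5 libraries numbered 1 of all populations 12 rose and 4 fell, and without HE replicate 3 12 rose. Runx1, the factor that the transition requires, was already present in HE: it was at 39.5, 43 and 52.3 CPM in the HE libraries and 188, 252 and 307 CPM in the pre-HSC II libraries (log2 difference 2.47 ± 0.35 SE, edgeR adjusted p = 6.88e-06), and at 1.81, 2.51 and 2.21 CPM in EC. Myb, needed for definitive blood cells, was at 13.5, 4.18 and 5.49 CPM in the HE libraries and 221, 213 and 259 CPM in the pre-HSC II libraries (log2 difference 4.90 ± 0.75 SE, edgeR adjusted p = 1.88e-05). The repressor Gfi1b, which silences endothelial genes, was at 0.0720, 0.197 and 1.49 CPM in the HE libraries and 123, 82.2 and 68 CPM in the pre-HSC II libraries (log2 difference 7.28 ± 1.11 SE, edgeR adjusted p = 3.48e-05), with HE replicate 3 above the other HE libraries. Its relative Gfi1 was not called, at 11.9, 7.12 and 17 CPM in the HE libraries and 14.1, 22.9 and 23.6 CPM in the pre-HSC II libraries (log2 difference 0.75 ± 0.73 SE, edgeR adjusted p = 0.531), and its mean was 53.4 ± 20.2 CPM in pre-HSC I. Ikzf1, a regulator of lymphoid fate, rose from 2.49 to 150.0 CPM (log2 difference 5.90 ± 1.15 SE, edgeR adjusted p = 0.00047), and Mybl2, a cell cycle relative of Myb, rose from 8.48 to 27.2 CPM. Spi1, which encodes PU.1, was at 0.468, 0.835 and 0.395 CPM in the HE libraries and 11.5, 12.2 and 12.4 CPM in the pre-HSC II libraries (log2 difference 4.40 ± 1.29 SE, edgeR adjusted p = 0.0139), the erythroid and megakaryocytic factor Gata1 averaged 0.0164 and 2.51 CPM (log2 difference 6.96, edgeR adjusted p = 0.0149), and Nfe2, a megakaryocyte factor, averaged 6.05 and 71.5 CPM (log2 difference 3.56, edgeR adjusted p = 0.0159). Spi1 and Gata1 missed the threshold without HE replicate 1 (adjusted p = 0.0536 and 0.0578) or 3 (0.0621 and 0.0615), and Nfe2 without HE replicate 2 or 3 (0.0528 and 0.0786).

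The factors that fell were Lef1 and Tcf7, which carry Wnt signals, Id2, an inhibitor of basic helix-loop-helix factors, Mllt3, a factor that sustains stem cells, and Gata2. Lef1 was at 9.54, 4.37 and 8.78 CPM in the HE libraries and 0, 0.0407 and 0.144 CPM in the pre-HSC II libraries (log2 difference -6.93 ± 0.76 SE, edgeR adjusted p = 9.64e-08). Id2 fell from 305 to 27.1 CPM and Tcf7 from 8.98 to 1.57 CPM. Gata2, needed for the emergence and survival of stem cells, was at 230.3, 226 and 184 CPM in the HE libraries and 157, 104 and 104 CPM in the pre-HSC II libraries (log2 difference -0.81 ± 0.21 SE, edgeR adjusted p = 0.00507). The pre-HSC I libraries were at 239.9, 193 and 193 CPM and overlapped those of HE.

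Genes tied to blood stem cells split. Of 42 tested 13 rose and 18 fell (median -0.72). Among the risen were Kit, Flt3 and Itga2b, described above, and Cd27, a receptor of the tumour necrosis factor family, at 0.0360, 3.73 and 1.97 CPM in the HE libraries and 35.7, 50.1 and 20.8 CPM in the pre-HSC II libraries (log2 difference 4.22 ± 1.07 SE, edgeR adjusted p = 0.00482). Hlf, a stem cell factor, was at 17.1, 9.93 and 20.4 CPM in the HE libraries and 87.3, 132 and 119 CPM in the pre-HSC II libraries (log2 difference 2.83 ± 0.81 SE, edgeR adjusted p = 0.0127), with adjusted p = 0.0639 without HE replicate 2. The angiopoietin receptor Tek fell from 515 to 62.7 CPM (log2 difference -3.04 ± 0.24 SE, edgeR adjusted p = 3.84e-10) and the adhesion molecule Esam from 407 to 64.7 CPM (log2 difference -2.65 ± 0.23 SE, edgeR adjusted p = 1.76e-09). Mecom, which keeps stem cells quiescent, was at 243, 425 and 426 CPM in the HE libraries and 43.8, 56.6 and 62.3 CPM in the pre-HSC II libraries (log2 difference -2.75 ± 0.39 SE, edgeR adjusted p = 6.81e-06). Procr, which encodes the protein C receptor EPCR, was at 83, 122 and 107 CPM in the HE libraries and 28.2, 28.7 and 29.6 CPM in the pre-HSC II libraries (log2 difference -1.85 ± 0.47 SE, edgeR adjusted p = 0.005), and its pre-HSC I mean of 98.6 CPM stayed near that of HE. The Cdk inhibitor Cdkn1c, which slows division of stem cells, fell from 339 to 71.4 CPM. Erg, a factor shared by endothelium and stem cells, was at 19.1, 22.2 and 23.7 CPM in the HE libraries and 17.6, 14.7 and 9.77 CPM in the pre-HSC II libraries (log2 difference -0.63 ± 0.38 SE, edgeR adjusted p = 0.256), and the adhesion receptor Cd44 at 189, 252 and 252 CPM in the HE libraries and 263, 259.9 and 307 CPM in the pre-HSC II libraries (log2 difference 0.26 ± 0.29 SE, edgeR adjusted p = 0.602), and neither passed the test.

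Leukocyte surface and signalling genes rose. Of 61 pan-hematopoietic surface and signalling genes 35 rose and 2 fell (median 2.73). Rac2, a small GTPase of blood cells (chromosome 15, 78389599 to 78403213), was at 4.00, 6.14 and 3.64 CPM in the HE libraries and 305, 291 and 170.2 CPM in the pre-HSC II libraries (log2 difference 5.80 ± 0.42 SE, edgeR adjusted p = 1.03e-10). Coro1a, an actin regulator of leukocytes, was at 12.9, 9.93 and 14.7 CPM in the HE libraries and 485, 459 and 321 CPM in the pre-HSC II libraries (log2 difference 5.07 ± 0.47 SE, edgeR adjusted p = 6.11e-09). Plek, the platelet and leukocyte kinase substrate pleckstrin, rose from 2.33 to 187 CPM (log2 6.32), the phosphatase Ptpn7 from 0.988 to 63.8 CPM (6.01), the actin debranching factor Gmfg from 25.9 to 167 CPM (2.69) and the granulocyte colony-stimulating factor receptor Csf3r from 2.84 to 35.9 CPM (3.66). The interleukin 7 receptor Il7r rose from 0.128 to 15.5 CPM (log2 difference 6.86 ± 1.47 SE, edgeR adjusted p = 0.00107). Il2rg, the common gamma chain of cytokine receptors, went the other way: it was at 218, 283 and 304 CPM in the HE libraries and 45.7, 45.1 and 23.5 CPM in the pre-HSC II libraries (log2 difference -2.82 ± 0.34 SE, edgeR adjusted p = 5.7e-07). Of 24 lymphoid-associated genes 6 rose and 2 fell (33.3% called, beside 21.4% of all genes). The falls were Il2rg and the GTPase Gimap4 (from 105 to 19.2 CPM). The neighbour of Gimap4, Gimap9, rose from 54.7 to 98.6 CPM (log2 difference 0.85, edgeR adjusted p = 0.0042).

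Most myeloid genes tested rose. Of 43 listed 27 were tested, 19 rose and 0 fell, with a median log2 difference of 5.11, or 4.78 with genes at 0 counts in HE set at their bound. Genes enter the test through the group where they are high, so the median covers the tested members only. Mpo, the granule enzyme myeloperoxidase, was at 1.48, 0.344 and 2.59 CPM in the HE libraries and 247, 270.2 and 192 CPM in the pre-HSC II libraries (log2 difference 7.31 ± 1.06 SE, edgeR adjusted p = 7.32e-06), and at 65.6, 77.5 and 39.3 CPM in pre-HSC I. Fcer1g and Tyrobp, adaptors of Fc and other immune receptors, rose from 0.727 to 150.4 CPM and from 0.270 to 54.1 CPM. The oxidase subunit Ncf1 rose from 1.04 to 28.6 CPM, and the granule proteoglycan Srgn from 48.8 to 185 CPM. The colony-stimulating factor 1 receptor Csf1r had 2 counts in HE and 3.37, 8.70 and 13.6 CPM in pre-HSC II (depth-scaled ratio 290, 95% counting interval 80 to 2398). Of 10 macrophage markers 5 were tested and only Csf1r was called (edgeR). Their median log2 difference was 2.78, with 4 of the 5 above 0, and DESeq2 called 2 higher and limma voom 3. The 2 flattest are given next. Mrc1 averaged 5.34 CPM in HE and 5.17 in pre-HSC II and Cx3cr1 2.45 and 2.71, and the mean macrophage level ran from 0.485 to 0.604 in HE and from 0.999 to 1.32 in pre-HSC II (mean log2(CPM + 1) of the list), with 5 and 4 of the 10 at 0 counts. Its part in the myeloid rise was not tested.

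Megakaryocyte and platelet genes went both ways, with 11 of 30 higher and 8 lower, or 7 higher without HE replicate 3 and 6 higher without the E10.5 libraries numbered 1. Rgs18, a G protein regulator of platelets, was at 0.180, 0.442 and 0.132 CPM in the HE libraries and 161, 121 and 75.2 CPM in the pre-HSC II libraries (log2 difference 8.90 ± 0.89 SE, edgeR adjusted p = 2.92e-07), and the integrin subunit Itgb3 rose from 24.6 to 87.5 CPM. Among those that fell were Vwf, the von Willebrand factor, from 422 to 34.7 CPM (log2 difference -3.60 ± 0.51 SE, edgeR adjusted p = 4.88e-06), the thrombin receptor F2r from 459.8 to 93.8 CPM, the caveola protein Sdpr from 299 to 8.81 CPM and Pdlim1 from 215 to 29.3 CPM. The platelet chemokine Pf4 was uneven, at 6.37, 15.6 and 0.307 CPM in the HE libraries and 119, 11.4 and 23.3 CPM in the pre-HSC II libraries (log2 difference 2.79, edgeR adjusted p = 0.044), with adjusted p = 0.432 without pre-HSC II replicate 1, the highest library, 0.118 without HE replicate 1 and 0.138 without HE replicate 3. Among 25 erythroid genes 4 rose and 2 fell (24% called, near the 21.4% of all genes), and 2 rose without HE replicate 3 or without the E10.5 libraries numbered 1. The carbonic anhydrase Car2 was at 6.27, 12 and 7.46 CPM in the HE libraries and 472, 483 and 366 CPM in the pre-HSC II libraries (log2 difference 5.69 ± 0.63 SE, edgeR adjusted p = 1.02e-07). Embryonic hemoglobins were not called: Hba-x averaged 2.55 and 1.14 CPM and Hbb-bh1 1.72 and 2.21 CPM in HE and pre-HSC II, against 108 and 82.6 CPM in pre-HSC I, and 0 of 8 erythrocyte markers tested were called (edgeR). These pre-HSC I means came mostly from replicate 3. Hemoglobin genes took 0.00145, 0.00136 and 0.172% of the counts in pre-HSC I replicates 1, 2 and 3. Reads of hemoglobin genes can be shared between near-identical copies. Of mast cell genes, the protease Cpa3 had 0 counts in HE and 2.07, 2.77 and 0.0958 CPM in pre-HSC II, at least 40.9-fold higher, with adjusted p = 0.0184, and between 0.0535 and 0.0558 when an HE library was left out.

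Endothelial identity fell almost throughout. Of 40 endothelial identity and junction genes 35 fell and 0 rose (median -3.13). Ramp2, which forms the adrenomedullin receptor, was at 496, 414 and 541 CPM in the HE libraries and 26.1, 15 and 23.8 CPM in the pre-HSC II libraries (log2 difference -4.48 ± 0.27 SE, edgeR adjusted p = 1.66e-11). The adhesion molecule Icam2 fell from 541 to 30.3 CPM (log2 -4.16), the scavenger receptor Stab1 from 123 to 2.26 CPM (-5.74), the surface proteins Ecscr from 824 to 84.8 CPM (-3.28) and Emcn from 572 to 37 CPM (-3.95), and the endothelial GTPase activator Arhgef15 from 89.7 to 3.68 CPM (-4.60). Some endothelial transcripts remained, with 84.8 ± 29.5 CPM of Ecscr and 64.7 ± 9.62 of Esam in pre-HSC II. Of 33 endothelial transcription factors 17 fell and 2 rose. Epas1, which encodes the hypoxia factor HIF-2alpha, was at 232, 272 and 280.2 CPM in the HE libraries and 5.24, 1.99 and 3.45 CPM in the pre-HSC II libraries (log2 difference -6.19 ± 0.57 SE, edgeR adjusted p = 5.48e-09). Sox17, needed for arterial and hemogenic endothelium, was at 29.4, 33.3 and 36.8 CPM in the HE libraries and 0.842, 0.163 and 0.431 CPM in the pre-HSC II libraries (log2 difference -6.09 ± 0.57 SE, edgeR adjusted p = 5.51e-09), and its relatives Sox7 and Sox18 fell from 135 to 3.94 CPM and from 34.6 to 6.31 CPM. The forkhead factor Foxc2 had 2 counts over the pre-HSC II libraries and 21 ± 2.56 CPM in HE. The ETS factors Ets1 and Elk3 fell from 262 to 35.6 CPM and from 300.3 to 69 CPM, while Erg, of the same family, was not called.

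Arterial and Notch genes had a median of -4.67, or -4.55 with genes at 0 counts set at their bound, and 26 of 37 fell while 1 rose. Gja5, the arterial connexin 40 (chromosome 3, 96836325 to 96857557), was at 369, 439.6 and 435 CPM in the HE libraries and 5.93, 0.529 and 3.11 CPM in the pre-HSC II libraries (log2 difference -7.01 ± 0.69 SE, edgeR adjusted p = 1.53e-08). Hey2, a Notch target that sets arterial fate (chromosome 10, 30552165 to 30562589), was at 98.7, 113 and 106 CPM in the HE libraries and 0.536, 0 and 0.718 CPM in the pre-HSC II libraries (log2 difference -7.99 ± 0.93 SE, edgeR adjusted p = 2.65e-07). The connexin Gja4 fell from 1639 to 13.8 CPM (log2 -6.89), the Notch ligand Jag1 from 1158 to 19.5 CPM (-5.89), Tmem100, an endothelial target of BMP signals, from 792 to 2.37 CPM (-8.39), the netrin receptor Unc5b from 114 to 2.07 CPM (-5.79) and the BMP receptor Acvrl1 from 76.1 to 2.36 CPM. Every pre-HSC II library lay below every HE library in these 7 genes. Venous and lymphatic genes, with 10 of 16 lower and 0 higher, included no called rise. The lymphatic receptor Flt4 fell from 114 to 5.59 CPM, the adaptor Dab2 from 106 to 6.58 CPM and the venous ephrin receptor Ephb4 from 78 to 11.3 CPM. Nr2f2, which sets venous fate, was uneven in HE, at 195, 16.1 and 39.8 CPM in the HE libraries and 6.81, 0.935 and 0.575 CPM in the pre-HSC II libraries (log2 difference -4.89 ± 0.81 SE, edgeR adjusted p = 4.71e-05), and its log2 difference without HE replicate 1, the highest, was -3.32. The levels of Nr2f2 in EC were 921, 569 and 546 CPM.

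Of 24 genes of the VEGF, angiopoietin and Tie pathways 16 fell and 2 rose. The VEGF receptor Kdr fell from 337 to 29.6 CPM and its relative Flt1 by 3.73 on the log2 scale, and the co-receptor Nrp1 was at 1181, 1345 and 1311 CPM in the HE libraries and 36.5, 8.17 and 16.5 CPM in the pre-HSC II libraries (log2 difference -5.97 ± 0.44 SE, edgeR adjusted p = 1.22e-10). The peptide Adm, ligand of the Ramp2 receptor, averaged 4.88 ± 1.92 CPM in HE and had 1 count in pre-HSC II. Of 48 guidance receptors and ligands 24 fell and 0 rose: the ephrin Efna1 fell from 673 to 12.1 CPM, the semaphorins Sema6d and Sema6a from 79.1 to 1.37 CPM and from 43.8 to 0.966 CPM, and the semaphorin receptor Plxnd1 from 389 to 49.4 CPM. Of 29 blood flow response genes 17 fell and 1 rose. Endothelin, encoded by Edn1, was at 242, 302 and 226 CPM in the HE libraries and 0.574, 0.0407 and 2.73 CPM in the pre-HSC II libraries (log2 difference -7.89 ± 0.84 SE, edgeR adjusted p = 6.25e-08), its converting enzyme Ece1 fell from 406 to 35 CPM, the nitric oxide synthase Nos3 from 56.8 to 1.23 CPM and the natriuretic peptide receptor Npr1 from 73.8 to 3.79 CPM.

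Matrix genes mostly fell. Of 58 extracellular matrix and basement membrane genes 46 fell and 0 rose (median -3.56). Without HE replicate 1, the library with mesenchyme transcripts, 43 fell and 1 rose (median -3.09). Nid1, which encodes nidogen, was at 351, 389 and 454 CPM in the HE libraries and 11.9, 16.1 and 12.7 CPM in the pre-HSC II libraries (log2 difference -4.87 ± 0.29 SE, edgeR adjusted p = 1.03e-11), the matrix glycoprotein Sparc fell from 1771 to 68.5 CPM, the type IV collagen Col4a2 from 474 to 31.7 CPM, the fibrillin Fbn2 from 229 to 16.2 CPM, the gelatinase Mmp2 from 183 to 11.8 CPM and Ecm1 from 233 to 17.2 CPM. Of 23 integrin subunits 8 fell and 4 rose (52.2% called, beside 21.4% of all genes). The laminin and collagen receptors Itga3 and Itga1 fell from 15.5 to 0.718 CPM and from 62.6 to 0.706 CPM, the fibronectin receptor Itga5 from 119 to 28.1 CPM and the common subunit Itgb1 from 639 to 244 CPM. Itga4, which binds VCAM1 on stromal cells, was at 32, 48.3 and 33.9 CPM in the HE libraries and 159, 219 and 236 CPM in the pre-HSC II libraries (log2 difference 2.43 ± 0.39 SE, edgeR adjusted p = 3.82e-05), and Itga2b and Itgb3, which pair on platelets, rose as well.

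Of 47 actomyosin and YAP/TEAD target genes 35 fell and 0 rose (median -2.12), and 33 fell and 1 rose without HE replicate 1. Cald1, the actin-binding caldesmon, was at 276, 363 and 324 CPM in the HE libraries and 10.6, 13.2 and 12 CPM in the pre-HSC II libraries (log2 difference -4.75 ± 0.26 SE, edgeR adjusted p = 5.2e-12). The YAP target Cyr61 fell from 125 to 1.74 CPM, the DNA-binding partner of YAP Tead1 from 47.4 to 1.41 CPM, the angiomotin relative Amotl1 from 106 to 2.58 CPM, the stress fibre gene Limch1 from 162 to 9.24 CPM and the tropomyosin Tpm4 from 738 to 149 CPM. Of 55 leukocyte actin and small GTPase genes 18 rose and 12 fell, and the falls included the GTPase Rhoc (from 192 to 20.5 CPM) and the plastin Pls3 (from 304 to 19.8 CPM). The WAVE complex subunit Nckap1 fell from 197 to 9.05 CPM as its blood cell paralogue Nckap1l rose.

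**Figure D3:**
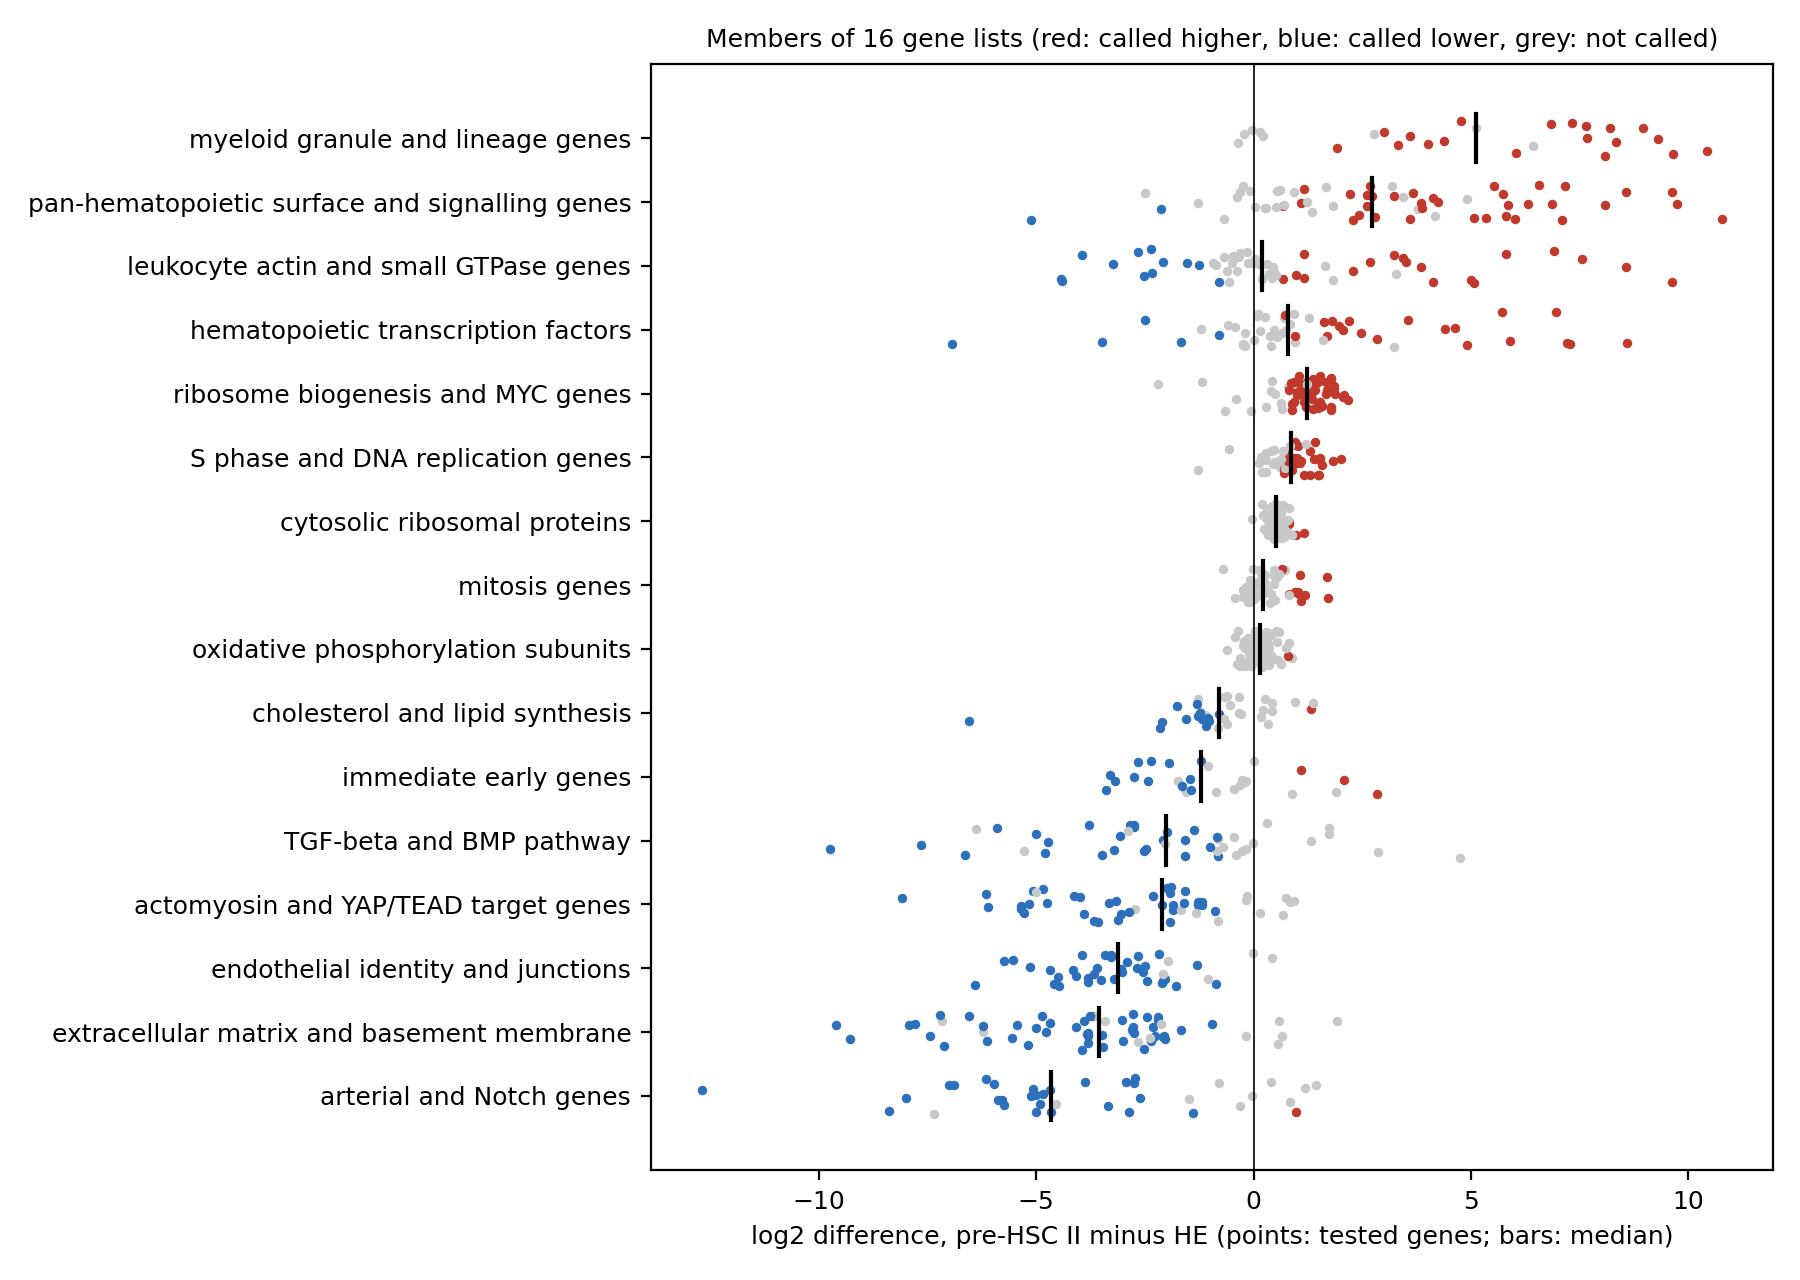
Log2 differences, pre-HSC II minus HE, of the tested members of 16 gene lists, with a bar at each list's median. Red members were called higher, blue called lower and grey not called. The medians run from -4.67 for arterial and Notch genes to 5.11 for myeloid genes, while those of mitosis genes and of oxidative phosphorylation subunits lie near 0.

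Signalling genes of the vessel wall fell in part. Of 42 TGF-beta and BMP genes 24 fell and 0 rose. The BMP target Id3 was at 1779, 1139.7 and 1336 CPM in the HE libraries and 37.6, 14.4 and 19.4 CPM in the pre-HSC II libraries (log2 difference -5.90 ± 0.40 SE, edgeR adjusted p = 3.87e-11), the ligand Bmp4 fell from 8.35 to 0.312 CPM, the inhibitor Smad7 from 72.5 to 7.77 CPM and the corepressor Skil from 794 to 93.7 CPM. Of 47 Wnt pathway genes 20 fell, 13 without pre-HSC II replicate 2, and 1 rose. The receptor Fzd4 fell from 18.1 to 0.844 CPM, the nuclear factors Tcf7l1 and Tcf7l2 from 53.3 to 1.77 CPM and from 158 to 49 CPM, and the ligand Wnt11 averaged 6.48 ± 3.26 CPM in HE and had 1 count in pre-HSC II. Of 17 feedback genes of the ERK pathway 6 fell and 1 rose. Spry4, an inhibitor of receptor signalling, was at 17.5, 16.5 and 27.4 CPM in the HE libraries and 0, 0.244 and 0.144 CPM in the pre-HSC II libraries (log2 difference -7.28 ± 0.57 SE, edgeR adjusted p = 3e-10), and the ERK phosphatase Dusp6 fell from 390.2 to 72.5 CPM. Of 27 immediate early genes 12 fell and 3 rose. Fos was at 233, 199.9 and 635 CPM in the HE libraries and 77.4, 31.4 and 50 CPM in the pre-HSC II libraries (log2 difference -2.75 ± 0.56 SE, edgeR adjusted p = 0.000578), with HE replicate 3 highest, and Atf3 and Nr4a1 fell from 47.5 to 4.78 CPM and from 24.8 to 2.36 CPM.

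Of 34 insulin-like growth factor, embryonic and imprinted genes 20 fell and 1 rose. The growth regulators Grb10 and Plagl1 fell from 249 to 51.8 CPM and from 383 to 61.2 CPM, Peg3 from 104 to 8.68 CPM, and Igf2r, the receptor that clears insulin-like growth factor 2, from 504 to 71.4 CPM. These 4 and Cdkn1c are imprinted genes. Reads of Igf2r cannot be told from those of its antisense RNA Airn where the 2 overlap. The binding protein Igfbp2 was at 28.6, 29.8 and 35.3 CPM in the HE libraries and 1.88, 0.407 and 1.87 CPM in the pre-HSC II libraries (log2 difference -4.49 ± 0.52 SE, edgeR adjusted p = 2.36e-07). Of 39 Hox genes and cofactors 15 fell and 1 rose (median -2.29, or -2.24 at the bounds). Hoxd8 was at 14.9, 18.7 and 23.3 CPM in the HE libraries and 0.0765, 0.285 and 1.29 CPM in the pre-HSC II libraries (log2 difference -5.13 ± 0.65 SE, edgeR adjusted p = 1.01e-06), Hoxb7 fell from 16.6 to 1.04 CPM and the cofactor Meis2 from 74.1 to 4.60 CPM. Hoxc10 and Hoxd4 had 0 counts in pre-HSC II and averaged 4.66 ± 0.811 and 1.23 ± 0.113 CPM in HE, at least 110.1-fold and 29.3-fold lower.

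Of 61 ribosome biogenesis and MYC genes 46 rose and 0 fell (median 1.24). Of the 46, 14 passed the test against a 2-fold change. Ncl, the abundant nucleolar protein nucleolin, was at 1219, 875 and 1140.2 CPM in the HE libraries and 3133, 2781 and 3114 CPM in the pre-HSC II libraries (log2 difference 1.48 ± 0.20 SE, edgeR adjusted p = 2.93e-06). The nucleolar GTPase Gnl3, known as nucleostemin, rose from 102 to 368 CPM, the pseudouridine synthase Dkc1 from 131 to 375 CPM, the helicase Ddx21 from 81.9 to 279 CPM and the ribosomal RNA factor Heatr1 from 26.1 to 82.5 CPM. Of 72 cytosolic ribosomal proteins 6 rose, or 8.33%, near the 8.75% of all genes, and 0 fell (median 0.51), and this count ran from 0 (without HE replicate 2) over 1 (without pre-HSC II replicate 1) to 20 (without HE replicate 1). Without the E10.5 libraries numbered 1, 12 rose. Their reads can be shared with processed pseudogenes. Rps2 was at 421, 228 and 432 CPM in the HE libraries and 748, 709.8 and 961 CPM in the pre-HSC II libraries (log2 difference 1.16 ± 0.31 SE, edgeR adjusted p = 0.00686), with adjusted p = 0.0577 without HE replicate 2.

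Of 54 S phase and DNA replication genes 33 rose, 19 without HE replicate 2, and 0 fell (median 0.87). Of the 33, 2 passed the test against a 2-fold change. Mcm10, which starts replication forks, was at 24.5, 27 and 12.9 CPM in the HE libraries and 74.5, 70.6 and 81.7 CPM in the pre-HSC II libraries (log2 difference 1.82 ± 0.30 SE, edgeR adjusted p = 4.07e-05), the helicase subunits Mcm3 and Mcm2 rose from 153 to 310.4 CPM and from 66 to 135 CPM, and the cohesion factor Dscc1 from 5.61 to 22.6 CPM. Of 55 mitosis genes 10 rose and 0 fell (median 0.22). These 18.2% stand beside 21.4% of all genes called and 8.75% called higher, and 0 passed the test against a 2-fold change. Among the 10 were the spindle motor Kif15 (from 82.1 to 185 CPM) and Kif14 (from 12.7 to 41.3 CPM). Of 24 D cyclins, their kinases and inhibitors 2 rose and 6 fell. These 33.3% called stand beside 21.4% of all genes, of which 8.75% were called higher. Cdk6 was at 0.144, 1.03 and 0.439 CPM in the HE libraries and 5.97, 5.16 and 9.53 CPM in the pre-HSC II libraries (log2 difference 3.68 ± 0.87 SE, edgeR adjusted p = 0.00257), and the antiproliferative gene Btg2 fell from 257 to 40.5 CPM. Cyclin D1, encoded by Ccnd1, averaged 42.9 and 19.3 CPM (log2 difference -1.15, edgeR adjusted p = 0.00822), with adjusted p = 0.0813 without HE replicate 1.

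Metabolic genes changed in part. Called were 1.32% of oxidative phosphorylation, 38.9% of glycolysis and hypoxia and 42.9% of cholesterol and lipid genes, beside 21.4% of all genes. Of 76 oxidative phosphorylation subunits 1 rose and 0 fell (median 0.15), and that one, Cycs, which encodes cytochrome c, was at 881, 481 and 533 CPM in the HE libraries and 1397, 887 and 987 CPM in the pre-HSC II libraries (log2 difference 0.79, edgeR adjusted p = 0.0238) and missed the threshold without HE replicate 2 or 3 or pre-HSC II replicate 1 (0.131, 0.0991 and 0.139). Without HE replicate 1, 4 subunits rose. Of 36 glycolysis and hypoxia genes 8 rose and 6 fell. The rises numbered 4 without HE replicate 2 or pre-HSC II replicate 1 or 2, 5 without HE replicate 3 and 3 without the E10.5 libraries numbered 1. Hexokinase 2, encoded by Hk2, was at 34.4, 23.7 and 45.8 CPM in the HE libraries and 287, 261 and 240.0 CPM in the pre-HSC II libraries (log2 difference 2.92 ± 0.28 SE, edgeR adjusted p = 7.29e-09), and the lactate transporter Slc16a1 rose from 23.1 to 130.3 CPM. The glucose transporter Slc2a1 fell from 97.9 to 43.1 CPM and the growth factor Vegfa from 14.2 to 2.44 CPM. Of 35 genes of cholesterol and lipid synthesis 14 fell and 1 rose (median -0.79). The desaturase Scd1 was at 22.1, 5.90 and 24.5 CPM in the HE libraries and 0.115, 0.325 and 0.0958 CPM in the pre-HSC II libraries (log2 difference -6.56 ± 0.76 SE, edgeR adjusted p = 2.29e-07), and the sterol enzymes Fdft1 and Sc5d and the sterol sensor Insig1 fell from 169 to 39.1 CPM, from 113 to 33.3 CPM and from 303 to 68.2 CPM.

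Among 53 chromatin and DNA methylation genes 10 rose and 3 fell, and the 24.5% called lay near the 21.4% of all genes. Dnmt3b, the DNA methyltransferase that sets new methylation (chromosome 2, 153475185 to 153513466), was at 37.3, 35.1 and 41.8 CPM in the HE libraries and 275, 334 and 342 CPM in the pre-HSC II libraries (log2 difference 3.06 ± 0.24 SE, edgeR adjusted p = 2.35e-10). The maintenance enzyme Dnmt1, its partner Uhrf1 and the remodeller Hells rose from 97.3 to 233 CPM, from 156 to 323 CPM and from 66.7 to 178 CPM. The endothelial deacetylase Hdac7 fell from 94.9 to 24.8 CPM. Of 15 genes of antigen presentation 2 rose and 0 fell (median -0.09), or 13.3%, beside 21.4% of all genes called and 8.75% called higher. The 2 were H2-T23 (from 8.96 to 28.9 CPM) and the immunoproteasome subunit Psmb10 (from 29.3 to 96.3 CPM), and reads of H2 genes can be shared. Neither passed the edgeR test against a 2-fold change (adjusted p = 0.0555 and 0.102). Of 53 interferon and inflammatory genes 3 rose, 1 without HE replicate 2, and 7 fell, so that 18.9% were called, near the 21.4% of all genes. Ifitm1 was at 21.4, 28.9 and 17.7 CPM in the HE libraries and 319, 210.5 and 129 CPM in the pre-HSC II libraries (log2 difference 3.27 ± 0.45 SE, edgeR adjusted p = 3.25e-06), with reads that near-identical Ifitm genes may share. The guanylate-binding genes Gbp3 and Gbp4 fell from 38.4 to 4.31 CPM and from 9.63 to 0.0271 CPM, and Il6st, the signal chain of interleukin 6 receptors, from 29.8 to 8.09 CPM.

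In some pairs of related genes the members differed in direction or call. The 12 pairs plotted were chosen for this after their values were seen, and their levels are not per length, so each gene is compared only with itself. Nckap1 was at 173, 206 and 212 CPM in the HE libraries and 11.6, 8.13 and 7.42 CPM in the pre-HSC II libraries, and Nckap1l at 0.0360, 0.0491 and 0.0439 CPM in the HE libraries and 28.4, 43.6 and 41.8 CPM in the pre-HSC II libraries. Rac1, the widely expressed relative of Rac2, was at 257, 217 and 227 CPM in the HE libraries and 190.0, 142 and 208 CPM in the pre-HSC II libraries (log2 difference -0.38 ± 0.26 SE, edgeR adjusted p = 0.349). The calcitonin receptor partner Ramp1 averaged 0.0310 CPM in HE and 11.2 in pre-HSC II (log2 8.33) while Ramp2 fell. Among Notch receptors Notch1 was at 146, 201 and 180.1 CPM in the HE libraries and 23.5, 28.9 and 19.4 CPM in the pre-HSC II libraries (log2 difference -2.88 ± 0.28 SE, edgeR adjusted p = 1e-08), and Notch2 at 93.5, 27 and 34.3 CPM in the HE libraries and 119, 91.3 and 95.7 CPM in the pre-HSC II libraries (log2 difference 0.98 ± 0.35 SE, edgeR adjusted p = 0.045), with overlapping groups and an adjusted p between 0.0641 and 0.222 without any 1 of HE replicates 2 and 3 and the pre-HSC II libraries. The RNA-binding protein Lin28b rose from 27 to 79.3 CPM, and its relative Lin28a averaged 4.54 and 0.112 CPM, with HE replicate 2 at 0.0983 CPM. The histone methyltransferase Ezh2 rose from 71.2 to 118 CPM and Ezh1 fell from 33.9 to 12.9 CPM. The methylcytosine oxidase Tet1 rose from 21.7 to 58.1 CPM (adjusted p = 0.0805 without pre-HSC II replicate 2) and Tet2 averaged 155 and 86.8 CPM (log2 difference -0.84, edgeR adjusted p = 0.0216, and between 0.067 and 0.0988 without HE replicate 1 or 2 or pre-HSC II replicate 2 or 3). Spry1 rose from 1.54 to 5.77 CPM with overlapping groups while Spry4 fell, and Vegfb averaged 4.03 and 12.7 CPM (log2 difference 1.65, edgeR adjusted p = 0.0185, and between 0.0628 and 0.107 without HE replicate 2 or 3 or pre-HSC II replicate 3) while Vegfa fell. Hk1 (log2 difference 0.23 ± 0.41 SE, edgeR adjusted p = 0.761) and Cdk4 (log2 difference 0.24 ± 0.22 SE, edgeR adjusted p = 0.494) were not called beside the rises of Hk2 and Cdk6.

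**Figure D4:**
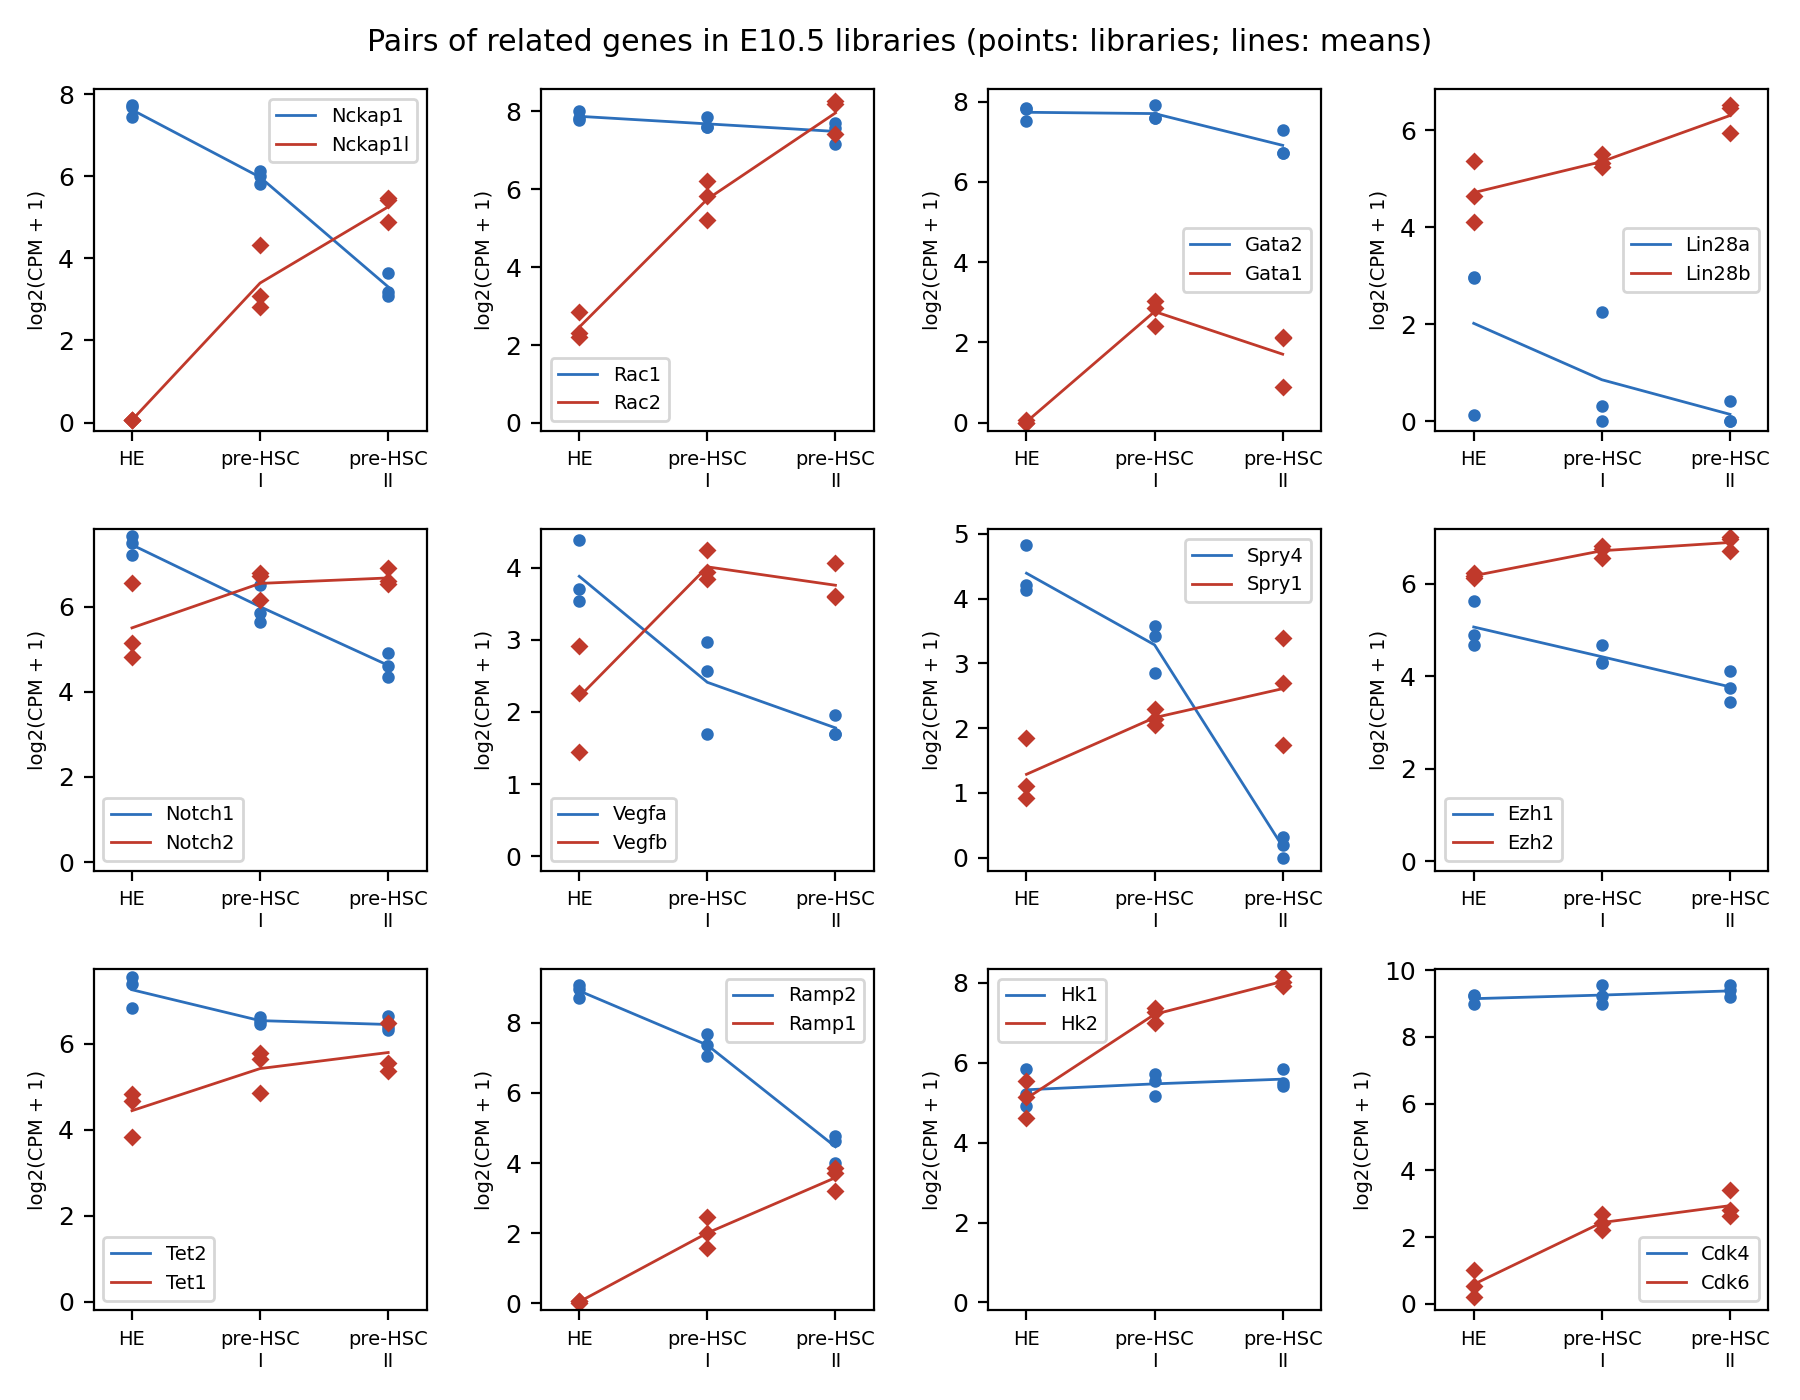
Levels of 12 pairs of related genes, in log2(CPM + 1), over the E10.5 libraries of HE (left), pre-HSC I (middle) and pre-HSC II (right), with points for libraries and lines through the means. Blue genes did not rise and red genes rose from HE to pre-HSC II, as for Nckap1 and Nckap1l. Heights of 2 genes in a panel are not per length.

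Pre-HSC I of the same day were set beside both populations. The comparisons of pre-HSC II with HE and with pre-HSC I share the pre-HSC II libraries, and each is given by its own values. Pre-HSC II differed from pre-HSC I in 673 of 15238 genes (4.42%), 21 higher (0.138%) and 652 lower (4.28%). Of the 1333 genes higher than in HE 20 were also called higher than in pre-HSC I and 1313 were not called. Of the 1934 lower genes 639 were also called lower and 1295 were not. A gene that was not called may still differ. The count of 21 was not stable: it ran from 4 to 17 when 1 of the 6 libraries was left out, with 4 without pre-HSC II replicate 2, 8 without replicate 1 and 12 without replicate 3, and 11 and 13 without pre-HSC I replicate 2 or 3.

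Genes not called between pre-HSC I and pre-HSC II included Runx1, at 225 ± 50.9 and 249 ± 59.5 CPM (log2 difference pre-HSC II minus pre-HSC I 0.15, edgeR adjusted p = 0.996), Kit (244 ± 90.2 and 309 ± 77.7 CPM) and Itga2b (28.8 ± 13.9 and 28 ± 12.7 CPM). Genes called higher in pre-HSC II than in pre-HSC I included Ptprc (3.13, adjusted p = 0.00838), Rac2 (2.22, 0.000116), Coro1a (1.44, 0.0375), Prtn3 (1.79, 0.0239) and Dnmt3b (0.77, 0.0417). Of these 5 Rac2 was called without any 1 of the 6 libraries. Ptprc was not without pre-HSC I replicate 1 (0.0611) or pre-HSC II replicate 2 (0.0779), and Coro1a (0.0934 to 0.18), Prtn3 (0.0962 to 0.161) and Dnmt3b (0.0537 to 0.28) lost the call in most such runs. Of the genes that fell, Cdh5 was at 262, 302 and 419.9 CPM in pre-HSC I (log2 -2.09), Gja5 at 73.1, 112 and 91.7 (-4.84), Hey2 at 15, 19.1 and 26.6 (-5.61), Sox17 at 7.63, 13 and 15.3 (-4.62) and Plat at 11.2, 3.52 and 5.87 (-10.30), and each was called lower in pre-HSC II than in pre-HSC I. By list, 27 of 40 endothelial identity genes, 22 of 37 arterial and Notch genes, 32 of 58 matrix genes and 20 of 47 actomyosin genes were called lower than in pre-HSC I. In mean log2(CPM + 1), mesenchyme and smooth muscle markers were at 2.53 in pre-HSC I, 2.75 in HE and 1.12 in pre-HSC II. The part of such cells in these counts was not tested. In the blood lists 4 of 61 pan-hematopoietic genes were higher and 1 lower, 0 of 50 hematopoietic transcription factors were higher and 4 lower, and 0 of 61 ribosome biogenesis genes and 0 of 54 S phase genes were called (edgeR, with medians of 0.37 and 0.11 over these lists).

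The step was set beside that of E9.5, where pro-HSC/HPC is the blood population and the labelled tissue differs. The difference of the 2 log2 steps was tested for a panel of 24 genes, with p-values adjusted over all 15238 genes, of which 1387 (9.10%) were called. Of the panel 11 were called. Among endothelial genes of the panel Cdh5, Gja5 and Hey2 were called. Cdh5 averaged 785 ± 199 CPM in E9.5 HE and 719 ± 189 in pro-HSC/HPC, Gja5 170.0 ± 39.3 and 156 ± 57.8, and Hey2 50.9 ± 16.1 and 56.1 ± 14.6, whereas all 3 fell at E10.5 as given above. Nr2f2 (difference -0.88, adjusted p = 0.724) and Erg (-0.58, adjusted p = 0.635) were not called. Sox17, Pecam1, Mecom, Sox18 and Gata2 were also called lower in the E10.5 step than in that of E9.5. Gata2 averaged 97.9 ± 13.1 CPM in E9.5 HE and 173 ± 28.2 in pro-HSC/HPC. Rac2, Kit and Itga2b were called higher in the E10.5 step. Rac2 averaged 3.54 ± 0.350 and 9.25 ± 3.32 CPM at E9.5, against 4.59 ± 1.35 and 256 ± 74.3 CPM at E10.5. The calls of Rac2, Gja5, Sox17, Cdh5, Hey2, Pecam1, Gata2 and Mecom held in each run without 1 library. Kit missed the threshold without E9.5 HE replicate 1 (adjusted p = 0.06), E10.5 HE replicate 2 (0.0616) or pre-HSC II replicate 3 (0.0565), and Sox18 (0.0516 to 0.134) and Itga2b (0.0551 to 0.177) missed it in most of these runs. For Runx1 the steps were 2.47 at E10.5 and 2.86 at E9.5 (difference -0.39 ± 0.48 SE, edgeR adjusted p = 0.756), and for Myb 4.90 and 6.29 (difference -1.39 ± 1.00, adjusted p = 0.501). For Ptprc they were 7.10 and 5.50, with an SE of 3.16 on their difference.

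Markers of other cell types were counted beside these results. Of 13 mesenchyme and smooth muscle markers tested 6 fell, 5 without HE replicate 1 and 3 without the E10.5 libraries numbered 1. The smooth muscle gene Tagln was at 204, 55.9 and 103 CPM in the HE libraries and 1.30, 4.64 and 4.12 CPM in the pre-HSC II libraries (log2 difference -5.17 ± 0.86 SE, edgeR adjusted p = 5.03e-05). Without HE replicate 1 its log2 difference was -4.57 (edgeR adjusted p = 0.000271). Col1a1 had a log2 difference of -9.30 (edgeR adjusted p = 0.0212) that came to -0.69 (adjusted p = 0.933) without HE replicate 1, and the cardiac and fetal actin Actc1 went from -4.13 to -1.49 (adjusted p = 0.53). Without any 1 pre-HSC II library Col1a1 had adjusted p between 0.0701 and 0.0823. Of 7 cardiac markers tested 4 fell and 1 rose: Tnnt2 and Myl7 were at 0 counts in pre-HSC II and averaged 4.56 and 0.601 CPM in HE. The cardiac level, in mean log2(CPM + 1), ran from 1.33 to 1.83 in HE and 0.875 to 1.10 in pre-HSC II. Of 7 mesonephros markers tested 2 fell, Gata3 (from 105 to 10.3 CPM) and Ret (from 18 to 1.15 CPM), and 1, Pax8, rose. Pax8 missed the threshold without any 1 HE library (edgeR adjusted p between 0.0642 and 0.067). The mesonephros level ran from 1.13 to 1.33 in HE and 0.635 to 0.777 in pre-HSC II, and 4 of the 10 listed markers had 0 counts in HE. Of 4 neural markers tested 2 fell, Stmn2 (from 484 to 6.26 CPM) and Nes (from 50.2 to 11.8 CPM), and the HE libraries were even in Stmn2, at 445, 430.5 and 577 CPM. Neural levels ran from 1.42 to 1.58 and 0.670 to 0.859, and 5 of the 10 listed markers had 0 counts in HE. Of 7 endoderm and epithelium markers tested only Sox17, an endothelial gene too, was called, and the level ran from 1.15 to 1.6 in HE and 0.860 to 1.20 in pre-HSC II. Of 5 germ cell markers tested 2 rose and 1 fell, and of 10 megakaryocyte markers 3 rose, but 1 without HE replicate 3, without pre-HSC II replicate 1 or without the E10.5 libraries numbered 1, and 1 fell. Their levels ran from 0.963 to 1.58 and 1.11 to 2.03 in HE, and from 1.52 to 1.87 and 2.37 to 3.37 in pre-HSC II. Apart from the values without HE replicate 1, the part of such cells in the differences was not tested.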

How the data were processed

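Per the labels' protocols, each library holds polyadenylated RNA of 100 sorted cells, amplified with a SMARTer Ultra Low Input kit. The submitters' processing notes name TopHat, SAMtools, Subread, featureCounts 1.6.2 and build mm9. The values deposited by the authors are raw counts per gene. How strand and multi-mapping reads were handled, and with which gene models, is not given in the sources used here, so overlapping genes and near-identical copies may share reads.

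The 24015 genes were filtered (filterByExpr, minimum count 10), which left 15238, scaled by TMM and fitted with edgeR 4.0.16 (R 4.3.3; quasi-likelihood test, 1 coefficient for each population, all 28 libraries, Benjamini-Hochberg adjustment over all genes tested). The common biological coefficient of variation was 0.563. A standard error is the absolute log2 difference over the square root of F. A fold against 0 counts is a lower bound against 3 counts over the group, and intervals and bounds cover counting error only. Alternatives used DESeq2 1.42.0, limma 3.58.1 voom, other scalings and filters, and left-out libraries. Genes named were the 15 largest rises and falls (at least 10 CPM in the higher group, no overlap of libraries, unnamed models left out), a panel of 24 genes, and from each of 47 lists, the tested members with the lowest p (6 at most). The comparison, panel and lists were chosen with earlier results of these data known. On simulated counts of 14788 genes the test recovered 35.8% of 2-fold, 86.6% of 4-fold and 100% of 8-fold changes, with 5 false calls among 153. The changed genes (67, 67 and 66) all had a mean of at least 10 CPM, and the other genes had no difference between the 2 groups. The simulated spread depended on a gene's level alone. These rates therefore do not cover genes at lower levels, genes with 1 outlying library or data with many changed genes.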

Additional observations from a re-analysis of the deposited data

Results flagged for a closer look

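The step from HE to the blood population differed between E10.5 and E9.5 in 11 of the 24 panel genes, by a test of the difference of the log2 steps itself (E10.5 minus E9.5, edgeR, adjusted over all genes tested). It was positive for Rac2 (4.41), Kit (1.84) and Itga2b (1.90). It was negative for Hey2 (-8.13), Gja5 (-6.89), Sox17 (-5.41), Cdh5 (-3.09), Pecam1 (-3.06), Mecom (-2.96), Sox18 (-2.10) and Gata2 (-1.63). Day, labelled tissue and the name of the blood population change together in this contrast and cannot be told apart.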

How the results depend on the processing

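Of the 255 called genes that could be named, 189 kept their direction and call in each setting that gave them a result. In each run without 1 library 225 did, and 0 changed sign. Settings without a result for a gene were not counted, so that Cdk6 had 16 settings and Cdh5 17. The count of 3267 genes between pre-HSC II and HE ran from 2589 to 2883 with 1 library left out and was 2441 without the E10.5 libraries numbered 1, an alternative added after the data were seen. DESeq2 called 3754 and limma voom 4604, of which 2118 were higher. A test against a 2-fold change called 1389 (347 higher, 1042 lower) between pre-HSC II and HE, 359 (2 higher, 357 lower) between pre-HSC II and pre-HSC I, and 7 panel genes between the days, since it asks for a larger difference. Genes higher in pre-HSC II than in pre-HSC I numbered 84 with only the libraries compared, 32 with the 12 E10.5 libraries, 44 with DESeq2, 225 with limma voom, 4 to 17 with 1 library left out and 6 without those numbered 1, and the cause was not tested. Same-numbered HE and pre-HSC II libraries correlated in their deviations at 0.433, 0.176 and 0.0781, and pre-HSC II and pre-HSC I libraries at 0.572, 0.0593 and 0.513. The main fit did not treat the numbers as pairs, since the labels state no pairing. In each comparison 1 pair stayed under 0.1. HE and pre-HSC I, which are not compared here, correlated at 0.43, 0.289 and 0.177. All these same-numbered values were positive. HE replicate 1 correlated at -0.233 and -0.266 with pre-HSC II replicates 2 and 3. Pre-HSC II replicate 1 correlated at -0.344 and -0.439 with pre-HSC I replicates 2 and 3. Deviations were taken from the mean of the 3 libraries of a group. A positive value with 1 library thus forces a negative value with another, and the negative values add no separate evidence. Whether same-numbered libraries share an origin was not tested. HE replicate 2 correlated more with pre-HSC II replicate 3 (0.221) than with its own number. With the replicate block 3442 genes were called between pre-HSC II and HE and 672 between pre-HSC II and pre-HSC I. Counts of 4 or fewer calls in a list moved by up to 3 when 1 library was left out.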
